A study of Mus musculus with 4 samples.

Results

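The genes for the subunits of glutamate, GABA and glycine receptors were followed in RNA-seq of mouse brain at E13. Members were the protein-coding genes of the deposited tables whose symbol belongs to the AMPA, kainate, NMDA, delta, metabotropic glutamate, GABA-A, GABA-B or glycine receptor subunit series. The rule used the symbols alone and no measured value, but the family was picked with earlier results of these data known. A total of 48 such genes was listed, 45 of them in both deposited tables, out of 19500 genes listed in both. Of the 45, 43 had enough counts to be tested among 15933 genes, and counts of tested subunits refer to these 43.

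The study compared 2 samples whose Wt1 alleles are floxed (Wt1_flfl, that is Wt1 fl/fl, also labelled wild type) with 2 samples labelled as a Wt1 conditional knockout (Wt1_CKO), all with the C57BL/6 strain background. The product of Wt1 is a transcription factor with zinc fingers, and the series asks what it does in dividing and differentiating neural progenitors. The labels name neither the Cre line nor the part of the brain, and they do not say whether a sample is 1 animal or a pool. The p-values below therefore measure only the spread between these samples. Samples carry the number 1 or 2 within each genotype, and each deposited table holds the Wt1_flfl and Wt1_CKO sample with the same number (pair 1 and pair 2 below). Values of the 4 libraries are given throughout in the order Wt1_flfl replicate 1, Wt1_CKO replicate 1, Wt1_flfl replicate 2 and Wt1_CKO replicate 2.

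Glutamate opens the ion channels of the AMPA, kainate and NMDA classes, which excite a neuron, and also acts on metabotropic receptors, which signal through G proteins. GABA and glycine open chloride channels, the GABA-A and glycine receptors, and GABA also acts on the G protein-coupled GABA-B receptor. Each channel is built from several subunits, and the mixture changes with age and cell type. In embryonic brain the NMDA subunits GluN2B and GluN2D and the glycine receptor α2 subunit are known to precede the forms of the adult. Neural progenitors and young neurons carry such receptors before synapses form, and in immature neurons, which hold much chloride, GABA depolarises the cell.

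The libraries held 16219310 to 17704698 listed counts. Levels are given as CPM, counts per 1000000 after TMM adjustment of the library total. Markers of postmitotic neurons summed to 6475, 6193, 6241 and 5687 CPM and those of radial glia to 2567, 2557, 2805 and 2952 CPM, so both cell classes of embryonic brain were present in every library. Of the 10 midbrain and hindbrain markers 9 were not analysed here, and the remaining one, Pax5, stayed at 0.125 to 0.292 CPM. Xist, the X-inactivation RNA of females, had 13086, 4, 16129 and 16472 counts. Wt1_CKO replicate 1 thus stood apart in Xist, which matters for the 5 X-linked subunits tested, Gria3, Gabra3, Gabre, Gabrq and Glra2. A difference in sex and a difference in genotype cannot be told apart within pair 1, for these genes or for any other. Wt1_CKO replicate 1 also enters the comparisons of all 4 libraries by genotype and by replicate number, so the limit reaches those too.

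Subunit transcripts were first compared as levels. Of the 43 tested subunits 22 had a mean of at least 10 CPM, and 3, Gabrr2, Grin2a and Grin2c, had under 1 CPM. Summed over the 45 subunits listed in both tables, receptor transcripts made up 1543, 1620, 1510 and 1404 CPM. To compare genes with each other, CPM was divided by the length of the gene's merged exons in kilobases (CPM per kb). On that scale Grik5 was highest with a mean of 45.4 CPM per kb, followed by Gabbr1 with 31.5, Grik3 with 23.0, Gria2 with 12.9 and Gria1 with 11.4 CPM per kb. The order depended on the length used. With the longest coding sequence in place of the merged exons Gabbr1 came first with 84.9 CPM per kb, followed by Grik5 with 79.9, Gria2 with 75.5 and Grik3 with 74.8 CPM per kb.

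**Figure D1:**
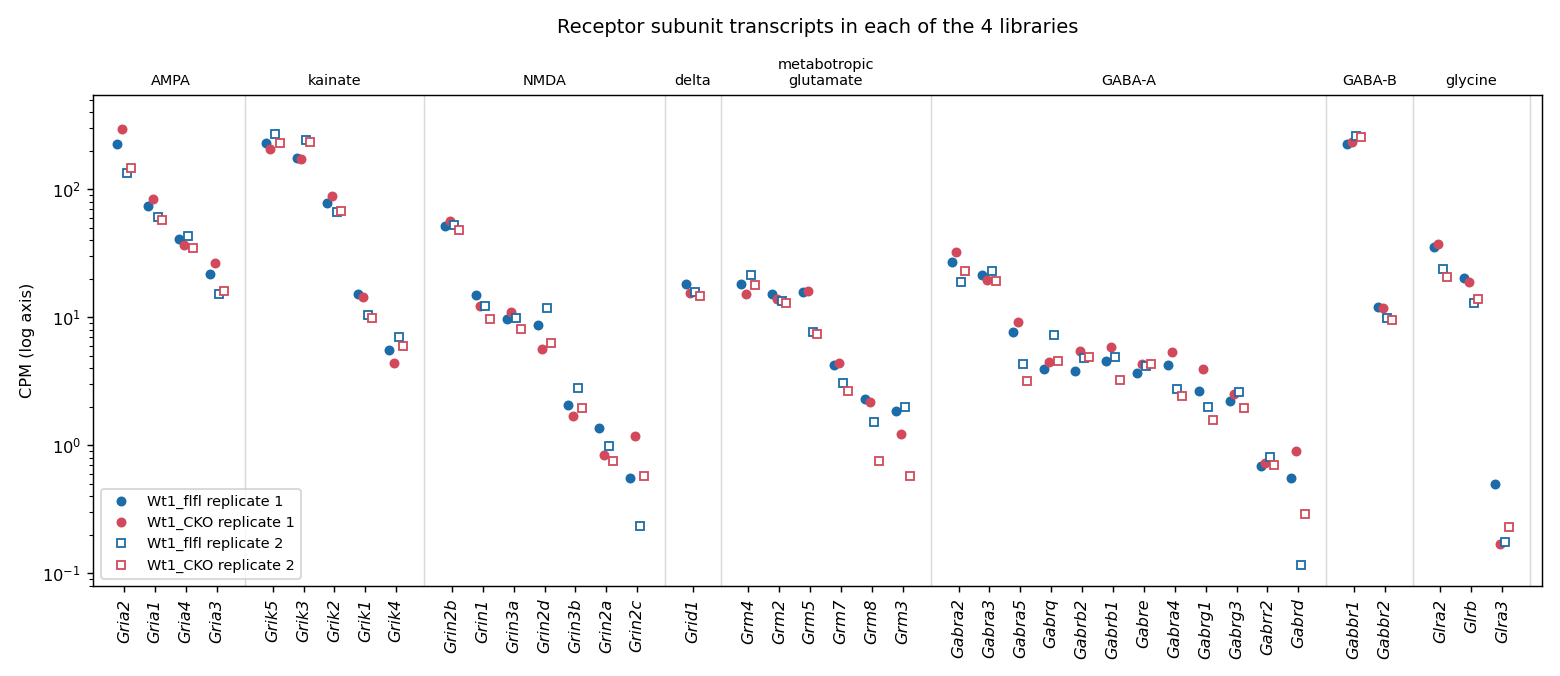
Each point is the CPM (log axis) of 1 receptor subunit in 1 library for 40 of the 45 subunits listed in both tables, grouped by class and ordered by mean CPM within a class. Blue stands for Wt1_flfl and red for Wt1_CKO, filled circles for replicate 1 and open squares for replicate 2. Gria2 sits at 226 and 295 CPM in the replicate 1 libraries and at 133 and 146 CPM in the replicate 2 libraries.

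AMPA receptors carry fast excitatory transmission, and the GluA2 subunit, encoded by Gria2, makes them impermeable to calcium once its transcript is edited. Gria2 had 226, 295, 133 and 146 CPM, and the replicate 1 libraries lay above the replicate 2 libraries. Gria1, which encodes GluA1, had 74.2, 83.4, 61.0 and 57.7 CPM. Gria4, an AMPA subunit known from young neurons, had 40.9, 37.0, 43.2 and 34.7 CPM, with both Wt1_CKO libraries below both Wt1_flfl libraries. Gria3 was the lowest of the class per kb, at 2.02 CPM per kb, and had 22.0, 26.4, 15.1 and 16.03 CPM. Gria2 held 40.9%, 45.9%, 31.7% and 36.1% of the class's CPM per kb, and Gria1 held 34.6%, 33.4%, 37.3% and 36.6%. The ratio of Gria2 to Gria1 per kb was 1.18, 1.37, 0.85 and 0.987, lower in both replicate 2 libraries. Which of them led there depended on the length, since the ratio was 1.63, 1.89, 1.17 and 1.36 with the longest transcript and 3.13, 3.63, 2.25 and 2.61 with the coding length.

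Kainate receptors modulate transmitter release and excitability. Grik5 encodes GluK5, a high-affinity subunit that needs a partner such as GluK2, and it had 230, 205, 272 and 231 CPM. Grik3, which encodes the low-affinity subunit GluK3, had 176, 174, 242 and 234 CPM, higher in both replicate 2 libraries. Grik2, for GluK2, had 77.8, 89.2, 66.7 and 67.1 CPM. Grik1 (GluK1) and Grik4 (the other high-affinity subunit) were lower, at 1.85 and 0.959 CPM per kb. The ratio of Grik3 to Grik2 per kb was 3.33, 2.87, 5.35 and 5.15, and again the replicate numbers did not overlap.

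NMDA receptors are calcium-permeable and combine the obligatory subunit GluN1, encoded by Grin1, with GluN2 or GluN3 subunits. Grin2b was the most abundant per kb at 2.10 CPM per kb, with 51.6, 56.8, 52.5 and 48.2 CPM. Grin1 had 15.01, 12.3, 12.3 and 9.64 CPM, and Grin2d, which encodes GluN2D, had 8.78, 5.68, 11.9 and 6.27 CPM. For Grin1 and Grin2d both Wt1_CKO libraries lay below both Wt1_flfl libraries, for Grin1 by a margin of 12.31 against 12.33 CPM. With the longest transcript in place of the merged exons Grin1 came first in the class. Its exons overlap those of the antisense gene Grin1os over 13.5% of their length. Grin2a and Grin2c, the forms that rise after birth, had 0.755 to 1.37 and 0.234 to 1.18 CPM, and Grin2b exceeded Grin2a per kb by 27.2, 48.7, 38.1 and 46.1 times. The glycine-binding subunits Grin3a and Grin3b had 8.07 to 11.02 and 1.69 to 2.81 CPM. The Grin3b value is uncertain, because 32.1% of its exon bases overlap exons of Tmem259 on the opposite strand and the sources used here do not say whether the counting used strand.

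The delta class, which links synapses through cerebellins more than it conducts current, was led by Grid1 with 18.2, 15.6, 15.7 and 14.8 CPM. Among the metabotropic glutamate receptors, Grm4, a presynaptic receptor that lowers cyclic AMP, had 18.3, 15.4, 21.5 and 17.9 CPM and the highest level per kb, 3.06 CPM per kb. Grm2, of the same inhibitory signalling type, had 15.2, 13.8, 13.4 and 12.9 CPM. Grm5, which couples to phospholipase C, had 15.7, 16.02, 7.66 and 7.38 CPM. It therefore showed the same separation by replicate number as Gria2. Grm7, Grm8 and Grm3 ranged from 0.581 to 4.44 CPM over all libraries.

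GABA-A receptors are pentamers that usually join α, β and γ subunits. Gabra3 (α3) had 21.3, 19.5, 23.1 and 19.2 CPM. Gabra2 (α2), the α subunit best known from embryonic neurons, stood at 0.652, 0.85, 0.42 and 0.623 times the level of Gabra3 per kb. With the coding length these ratios were 1.5, 1.95, 0.966 and 1.43, so the order of these α subunits depended on the length. Gabra5 (α5), which forms extrasynaptic receptors, had 7.72, 9.28, 4.32 and 3.19 CPM, so that the ratio of Gabra3 to Gabra5 per kb was 2.09 and 1.59 in the replicate 1 libraries and 4.05 and 4.55 in the replicate 2 libraries. The tested members Gabra4, Gabrb1, Gabrb2, Gabre, Gabrg1, Gabrg3, Gabrq and Gabrr2, ranged from 0.685 to 7.31 CPM.

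Gabbr1 encodes the GABA-B subunit that binds GABA and Gabbr2 the one that couples to G proteins. Gabbr1 had 226, 234, 263 and 255 CPM against 12.1, 11.8, 9.88 and 9.52 CPM for Gabbr2. Per kb Gabbr1 exceeded its obligatory partner by 16.1, 17.2, 22.9 and 23.0 times. Of the glycine receptor genes, Glra2 (α2) had 35.3, 37.4, 23.9 and 20.6 CPM and Glrb, the β subunit that anchors to gephyrin, 20.2, 19.1, 13.03 and 13.8 CPM. Glra2 stood at 2.59, 2.90, 2.71 and 2.2 times the level of Glrb per kb, and this ratio did not separate the replicate numbers although both genes did.

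Low or missing counts kept 5 members out of the tests. Glra3 had 8, 3, 3 and 4 counts and Gabrd, an extrasynaptic GABA-A subunit, 9, 16, 2 and 5 counts, both too few for the filter. Glra4 and Grm6 were listed for pair 1 with 2 and 1 and with 4 and 2 counts, and Gabrp for pair 2 with 1 and 3 counts. Other subunits of these families, such as Gabra6 and Glra1, were not analysed here.

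**Figure D2:**
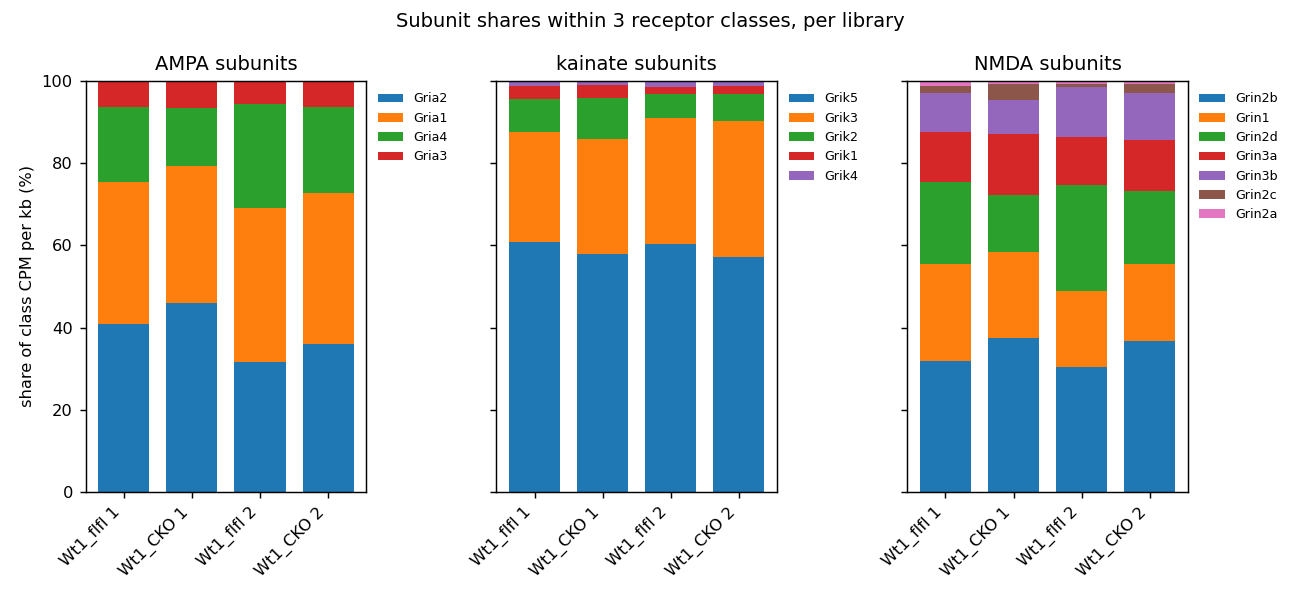
Stacked bars give each subunit's share (%) of the summed CPM per kb of merged exons of its class in each library, for the AMPA, kainate and NMDA classes. The Gria2 share is 40.9% and 45.9% in the replicate 1 libraries and 31.7% and 36.1% in the replicate 2 libraries, and the Grin2d share is 20.1% and 25.8% in Wt1_flfl against 14.0% and 17.8% in Wt1_CKO.

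The first comparison asked whether receptor transcripts differed between Wt1_CKO and Wt1_flfl brain. None passed edgeR's quasi-likelihood test. Of 43 tested subunits 0 had an adjusted p under 0.05, against 1 of all 15933 genes (0.00628%), and DESeq2 and limma-voom also called 0 subunits. Only Grin2d had an unadjusted edgeR p under 0.05 (1 subunit, 2.33% of the 43, against 1.56% of all tested genes), and such a p was given to 1 subunit by DESeq2 and to 2 by limma-voom. With 2 samples per group this does not show that the levels were alike. In bulk tissue fewer cells of a type and less RNA per cell cannot be told apart, here or in the comparisons below.

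Without a call, the subunits can only be described by direction. The median log2 fold change of the 43 subunits was -0.05, against 0.01 over all tested genes. In Wt1_CKO 14 subunits were higher and 29 lower, against 8254 higher and 7679 lower of all 15933 tested genes. The lower ones included 12 of 18 ionotropic glutamate subunits and 6 of 7 metabotropic glutamate subunits. The GABA-A subunits split into 7 higher and 7 lower. Both GABA-B and both tested glycine subunits counted as lower only by values near 0. These were -0.00 for Gabbr1, -0.04 for Gabbr2, -0.03 for Glra2 and -0.01 for Glrb. Class medians ran from -0.32 for NMDA to 0.13 for AMPA. The 2 libraries of a genotype did not overlap for 10 subunits that were lower in Wt1_CKO (23.3%, against 13.5% of all tested genes) and for 3 that were higher (6.98%, against 13.4%). Among the 10 were Gria4, Grin1, Grin2a, Grin2d, Grin3b, Grid1, Grm3, Grm4 and Gabra3, and the 3 were Grin2c, Gabrb2 and Gabre. The direction of the median rested on single libraries. It was -0.28 without Wt1_CKO replicate 1 and 0.14 without Wt1_CKO replicate 2.

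Within pairs, 18 subunits were lower in Wt1_CKO both times (41.9%, against 25.9% of all tested genes) and 7 were higher both times (16.3%, against 27%). A further 17 were higher in pair 1 and lower in pair 2 (39.5%, against 24.5%), 9 of them GABA-A subunits. Medians of the log2 fold change were 0.05 for pair 1 and -0.21 for pair 2. All 4 of the kainate subunits other than Grik2 and 4 of 7 NMDA subunits were lower in both pairs, whereas Gria2, Gria3, Grik2, Grin2c, Gabra2, Gabrb2 and Gabre were higher in both. With the numbers crossed, so that replicate 1 of one genotype met replicate 2 of the other, 3 subunits were higher both times and 12 lower both times. The shares of all tested genes were not counted for the crossed numbers, so these counts cannot be set against a background.

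**Figure D3:**
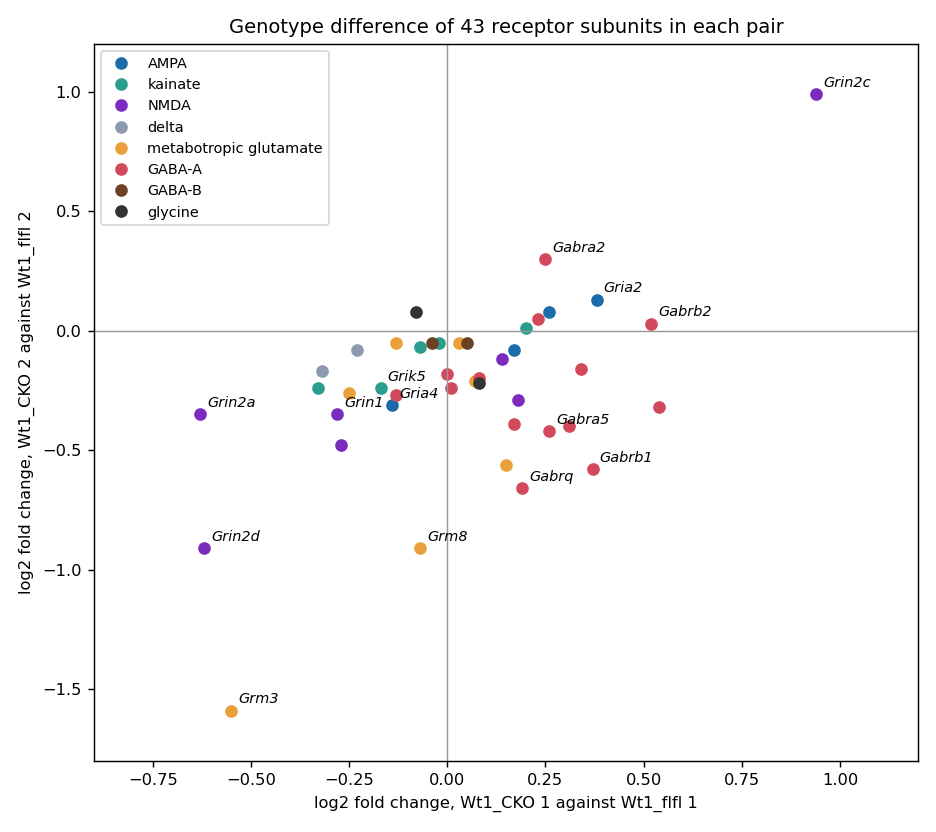
Each point is 1 of the 43 tested subunits, with the log2 fold change of Wt1_CKO against Wt1_flfl in pair 1 on the horizontal axis and in pair 2 on the vertical axis, coloured by receptor class. Points in the lower left are lower in Wt1_CKO in both pairs, such as Grin2d at -0.62 and -0.91 and Grm3 at -0.55 and -1.59, and the lower right holds the 17 subunits that were higher in pair 1 and lower in pair 2.

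Grin2d (ENSMUSG00000002771, chromosome 7, 45831883 to 45878378, GRCm38) had the smallest genotype p of the subunits. GluN2D gives NMDA receptors slow kinetics and a weak magnesium block, and in cortex it is known from interneurons. Its counts were 141 and 204 in Wt1_flfl against 101 and 108 in Wt1_CKO, or 10.4 ± 2.22 against 5.98 ± 0.420 CPM (SD, n = 2 each). The groups did not overlap. The log2 fold change of -0.79 (SE 0.229) had an unadjusted p of 0.0149 in edgeR's quasi-likelihood test and a Benjamini-Hochberg adjusted p of 1, with 0.181 to 1 over the alternatives. The ratio of Grin2b to Grin2d per kb was 1.58 and 1.18 in Wt1_flfl and 2.68 and 2.06 in Wt1_CKO, also without overlap. With the longest transcript the ratio was 1.33 and 0.994 in Wt1_flfl and 2.26 and 1.73 in Wt1_CKO. Exons of Gm45441, an antisense gene, cover 9.66% of the Grin2d exon bases, so reads of the 2 genes may be mixed.

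Grm3 (ENSMUSG00000003974, chromosome 5, 9485541 to 9725170), an inhibitory metabotropic receptor of glia and neurons, had 30 and 34 counts in Wt1_flfl against 22 and 10 in Wt1_CKO. The groups did not overlap, and the log2 fold change of -1.08 (SE 0.480) had an edgeR adjusted p of 1. Grin2a had a log2 fold change of -0.56 (SE 0.222) at 13 to 22 counts per library. Grin2c, at 4 to 21 counts, had one of 1.15 (SE 0.652), with 9 and 4 counts in Wt1_flfl against 21 and 10 in Wt1_CKO. At such counts sampling noise alone is large, and the SE, which comes from 2 samples per group, can fall below it.

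Of the more abundant subunits, Gria4 had a log2 fold change of -0.23 (SE 0.0606), Grin1 of -0.32 (SE 0.224), Grm4 of -0.26 (SE 0.161) and Grik5 of -0.20 (SE 0.149). In the opposite direction Gria2 had 0.30 (SE 0.632), Gabra2 0.27 (SE 0.349), Gabrb2 0.27 (SE 0.184), Gria3 0.19 (SE 0.446) and Grik2 0.11 (SE 0.233). The adjusted p of edgeR's test was 1 for each of these 9 genes. The Gria2 and Gria3 differences were smaller than the spread within a genotype, and their sign turned without Wt1_CKO replicate 1 (-0.30 and -0.21) and without Wt1_flfl replicate 2 (-0.04 and -0.05). The sign of Grik2 turned without Wt1_CKO replicate 1 (-0.11).

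In the authors' deposited table of pair 1 an adjusted p under 0.05 stood beside 8 of 45 subunits (17.8%, against 23.3% of all its genes), 6 higher and 2 lower in Wt1_CKO. The authors' deposited table of pair 2 gave such a p to 9 of 45 (20%, against 19.2%), 2 higher and 7 lower. Each of these p-values compares 1 library with 1 library and does not measure the spread between samples. Passing in both pairs with the same direction was seen for 4 subunits in the authors' deposited tables. The share of all genes that did so was not counted, so the 4 cannot be set against a background. Gria2 (log2 0.40 and 0.14) and Gabra2 (0.28 and 0.31) were higher in the authors' deposited tables, and Grik5 (-0.15 and -0.23) and Grin2d (-0.61 and -0.92) were lower. The authors' deposited table of pair 2 marked 1 subunit as significant, Grm3 with a log2 of -1.76 and an adjusted p of 0.00172 (2.22% of 45, against 3.19% of all genes), and that of pair 1 marked 0 (against 3.2%).

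Cell markers were compared between the genotypes in the same way, and edgeR called 0 of them. The 10 markers of GABAergic and ventral telencephalic cells were all lower in Wt1_CKO, with 0 called by edgeR or DESeq2 and 0 at an unadjusted edgeR p under 0.05, and summed to 1426, 1133, 1702 and 1539 CPM. The 7 thalamic and habenular markers summed to 213.8, 140.3, 169.8 and 130.2 CPM. Of the 7 markers 3, Olig3, Shox2 and Tcf7l2, were called as lower by DESeq2 and not by edgeR. Among all tested genes DESeq2 called 5 by genotype. Before adjustment the same 3 markers had edgeR p-values below 0.05 (against 1.56% of all tested genes). With limma-voom 3 of the 7 were below 0.05 before adjustment and 0 were called. Cortical projection neuron markers were all higher, by a median of 0.14 in log2, with 0 called and 0 at an unadjusted p under 0.05 by edgeR and 0 called by DESeq2. The part of these cell classes in the receptor values was not tested.

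The second comparison set the 2 replicate 2 libraries against the 2 replicate 1 libraries, each number holding 1 library of each genotype. The labels do not say what a number stands for. Here 5 of 43 subunits passed edgeR's quasi-likelihood test (11.6%, against 1.96% of all tested genes). Gria2, Grm5, Glra2 and Gabra5 were lower in replicate 2 (9.3%, against 1.08%) and Grik3 was higher (2.33%, against 0.885%). Unadjusted p-values under 0.05 were found for 17 subunits (39.5%, against 17.9%), of which 16 were lower (against 8.75%). The median log2 fold change over the 43 was -0.29, against -0.00 over all tested genes. It was -0.18 between the Wt1_flfl libraries and -0.41 between the Wt1_CKO libraries. The libraries of the 2 numbers did not overlap for 19 subunits that were lower in replicate 2 (44.2%, against 25%) and for 5 that were higher (11.6%, against 24.7%).

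Gria2 (ENSMUSG00000033981, chromosome 3, 80681450 to 80802835) was lower in replicate 2, with a mean of 140 ± 9.22 CPM against 260 ± 48.6 CPM in replicate 1 (SD, n = 2 each). The groups did not overlap. The log2 fold change of -0.90 (SE 0.203) had an edgeR adjusted p of 0.0141, with 6.29e-09 to 0.0465 over the alternatives. It was the one subunit that passed in each alternative, and the difference was -0.76 within Wt1_flfl and -1.01 within Wt1_CKO. Grm5 (ENSMUSG00000049583, chromosome 7, 87584168 to 88134907) had 15.9 ± 0.232 CPM in replicate 1 and 7.52 ± 0.199 CPM in replicate 2 (SD, n = 2 each). Its log2 fold change of -1.08 (SE 0.0304) had an edgeR adjusted p of 0.0178 (0.000678 to 0.0952 over the alternatives). The 2 libraries of each number lay close together.

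Glra2 (ENSMUSG00000018589, chromosome X, 165129017 to 165327393) fell from 36.3 ± 1.47 CPM in replicate 1 to 22.2 ± 2.37 CPM in replicate 2 (SD, n = 2 each), or by 0.71 on the log2 scale (SE 0.116), with an edgeR adjusted p of 0.0268 (0.00221 to 0.144). Glra2 is X-linked, and the library with 4 Xist counts, Wt1_CKO replicate 1, had 37.4 CPM of Glra2 against 35.3 CPM in the other replicate 1 library. Gabra5 (ENSMUSG00000055078, chromosome 7, 57407672 to 57510059) fell from 8.50 ± 1.098 to 3.76 ± 0.799 CPM (SD, n = 2 each), or by 1.18 on the log2 scale (SE 0.249), and edgeR gave an adjusted p of 0.0415 (0.00198 to 0.215). Grik3 (ENSMUSG00000001985, chromosome 4, 125490700 to 125714173) rose from 175 ± 1.39 to 238 ± 5.39 CPM (SD, n = 2 each), a difference of 0.45 in log2 (SE 0.0245), at an edgeR adjusted p of 0.0312 (0.000744 to 0.150). Without Wt1_flfl replicate 1, and likewise without Wt1_CKO replicate 1, Gria2 alone passed. With genotype as a further term 10 subunits passed (against 7.14% of all tested genes), among them the same 5 and Gria1, Gria3, Gabra2 and Glrb. DESeq2 called 7 (against 3.67%), the same 5 with Gria1 and Gria3.

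**Figure D4:**
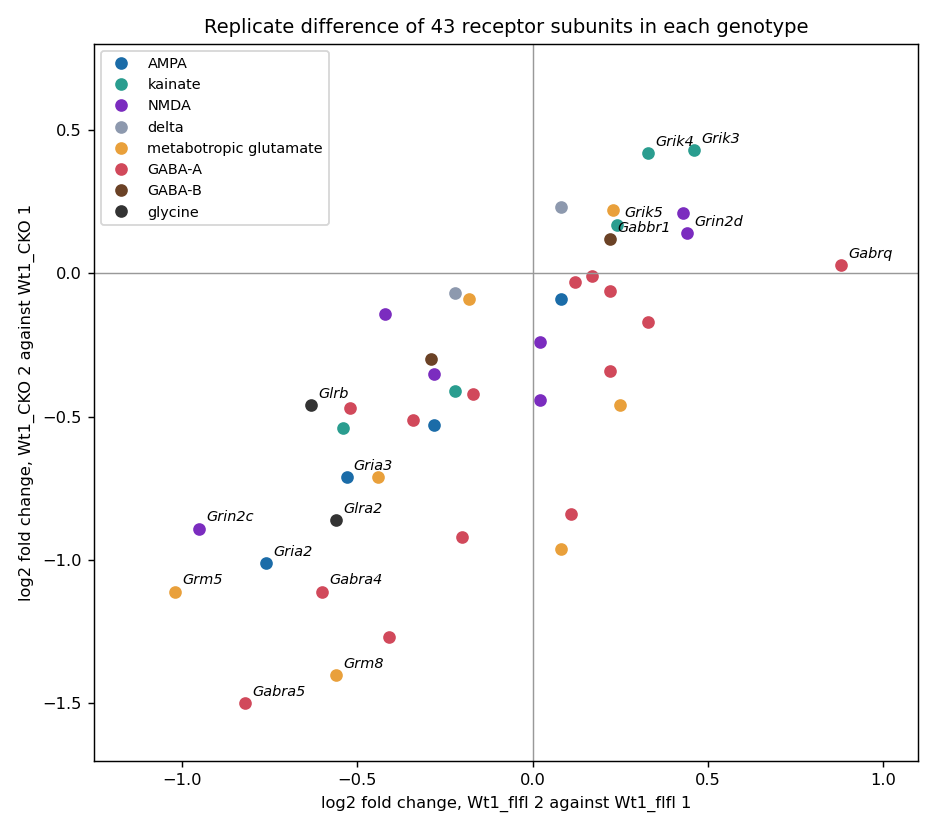
Each point is 1 of the 43 tested subunits, with the log2 fold change of replicate 2 against replicate 1 among the Wt1_flfl libraries on the horizontal axis and among the Wt1_CKO libraries on the vertical axis, coloured by receptor class. Gria2, Grm5, Glra2 and Gabra5 lie in the lower left, lower in replicate 2 within both genotypes, and Grik3 lies in the upper right at 0.46 and 0.43.

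Next in order of p among the lower subunits were Gria3, with a log2 fold change of -0.63 (SE 0.137) and an edgeR adjusted p of 0.0628, and Gria1, with -0.41 (SE 0.0931) and 0.0713. Of the higher ones Gabbr1 had 0.17 (SE 0.0335), Grik5 0.21 (SE 0.144), Gabrq, the θ subunit, 0.50 (SE 0.343), Grik4 0.38 (SE 0.204) and Grm4 0.23 (SE 0.181), and none of these passed. Kainate subunits thus split, with Grik3, Grik4 and Grik5 on one side and Grik1 (-0.54) and Grik2 (-0.32) on the other, whereas 4 of 4 AMPA and 6 of 7 metabotropic glutamate subunits had negative values. For Gria4 the log2 fold change was -0.00.

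Windows of 250 bases before the annotated start are printed for the called subunits that the RefSeq table holds (GRCm38.p6), so that their base composition can be seen beside the values. The Gria2 window is chr3:80802836-80803085 (minus strand), that of Glra2 chrX:165327394-165327643 (minus strand), that of Gabra5 chr7:57510060-57510309 (minus strand) and that of Grik3 chr4:125490446-125490695 (plus strand). Sequences run 5′ to 3′ on the gene's strand. Capitals mark matches on either strand to GGGCGG (a GC box), CAGATG (an E-box used by proneural factors) or GCGTGGG (a zinc finger motif of the EGR type), and no 2 matches overlapped.
Gria2: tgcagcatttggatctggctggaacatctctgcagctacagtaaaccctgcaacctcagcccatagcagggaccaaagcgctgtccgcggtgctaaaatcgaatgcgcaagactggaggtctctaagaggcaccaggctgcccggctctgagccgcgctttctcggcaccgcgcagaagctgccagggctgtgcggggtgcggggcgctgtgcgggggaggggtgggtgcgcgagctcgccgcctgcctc
Glra2: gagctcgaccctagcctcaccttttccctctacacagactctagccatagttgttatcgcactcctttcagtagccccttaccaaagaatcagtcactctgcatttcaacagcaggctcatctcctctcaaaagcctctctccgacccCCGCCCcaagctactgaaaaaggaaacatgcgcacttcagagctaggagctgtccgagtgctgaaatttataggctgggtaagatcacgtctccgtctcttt
Gabra5: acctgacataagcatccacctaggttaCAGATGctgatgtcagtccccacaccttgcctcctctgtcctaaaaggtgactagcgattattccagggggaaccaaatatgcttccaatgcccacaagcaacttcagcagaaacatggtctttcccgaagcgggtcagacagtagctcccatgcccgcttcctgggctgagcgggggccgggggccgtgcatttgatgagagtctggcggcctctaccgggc
Grik3: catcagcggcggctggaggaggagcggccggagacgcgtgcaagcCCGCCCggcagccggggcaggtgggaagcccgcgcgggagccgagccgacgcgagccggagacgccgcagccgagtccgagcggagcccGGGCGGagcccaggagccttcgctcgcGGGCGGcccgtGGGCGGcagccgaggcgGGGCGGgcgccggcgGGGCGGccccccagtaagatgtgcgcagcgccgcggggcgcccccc
Grik3, the called subunit that was higher in replicate 2, had 6 GC boxes and 82% G and C. Glra2 had 1 GC box and 50.4%, Gabra5 1 CAGATG and 56.4%, and Gria2 no match and 64.8%. Over all 32817 windows of that length 32.7% held GGGCGG, 14.5% CAGATG and 4.31% GCGTGGG. Of 37 windows of 30 receptor subunits, 20 held GGGCGG (54.1%), 2 CAGATG (5.41%) and 1 GCGTGGG (2.7%), and the median G and C content was 61.2% against 52.4%. A match is a description of the letters and not evidence of binding.

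Most GABA-A genes lie in clusters, which allowed neighbours to be compared. The cluster on chromosome 5 (70751047 to 72149037, GRCm38) holds Gabrg1, Gabra2, Gabra4 and Gabrb1, whose summed levels were 38.5, 47.5, 28.5 and 30.5 CPM. All of its 4 genes were lower in replicate 2, by log2 values of -0.36 to -0.90, and none passed with replicate number as the only term. For Gabrb1 the replicate numbers overlapped, with a difference of 0.11 within Wt1_flfl and of -0.84 within Wt1_CKO. On chromosome 7 Gabra5 was called at -1.18 while its neighbour Gabrg3 had -0.05. The cluster on the X chromosome (72255999 to 72842602), with Gabre, Gabra3 and Gabrq, had 28.9, 28.3, 34.5 and 28.0 CPM, and its 3 genes had values of 0.05 to 0.50. Exons of Gabra5 overlap an antisense gene, Gm9962, over 4.98% of their length.

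Some markers of neuron classes also passed the replicate number test. All 7 cortical projection neuron markers were lower in replicate 2 and 5 of them were called, among them Tbr1, Fezf2, Neurod2 and Neurod6. Over all tested genes 1.08% were called as lower. The 7 markers summed to 1797, 1991, 1175 and 1322 CPM. All 10 markers of GABAergic and ventral telencephalic cells were higher in replicate 2, and Dlx2 and Dlx6 were called (against 0.885% of all tested genes). Radial glial markers split into 5 higher and 3 lower of 8, with Nes and Hes5 called as higher (against 0.885% of all tested genes). Of the lower ones 2 had an unadjusted edgeR p under 0.05. Erythroid markers summed to 960.3, 909.1, 1817 and 1728 CPM. Of these 8 markers 6 were higher and 2 lower in replicate 2. By edgeR 3 were called as higher (against 0.885% of all tested genes), and 1 of the lower ones had an unadjusted p under 0.05. Postmitotic neuron markers as a whole had 0 calls by edgeR, 3 unadjusted p under 0.05 and 1 call by DESeq2, with a median log2 of -0.09. Cell composition and replicate number cannot be told apart in these libraries, and the share of these cell classes in the subunit differences was not tested.

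Genes that act with the receptors were read from lists. None of the 7 lists had a genotype call by edgeR, DESeq2 or limma-voom, and an unadjusted edgeR p under 0.05 was limited to Cnih2, Dlgap3 and Slc12a2. In the list of glutamate release and uptake, 8 of 14 tested genes were higher and 6 lower in Wt1_CKO, with a median log2 of 0.03 against 0.01 over all tested genes. Slc38a2, a glutamine transporter, was its most abundant member at 303, 329, 279 and 292 CPM. The smallest p-values were those of the glial glutamate transporter Slc1a2 (log2 -0.28, SE 0.111) and the vesicular transporter Slc17a8 (-0.65, SE 0.445). By replicate number Slc1a1, the neuronal glutamate transporter, was called, with 14.0, 18.4, 8.71 and 7.78 CPM, a log2 fold change of -0.98 (SE 0.210) and an edgeR adjusted p of 0.0366.

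In the list of GABA and glycine synthesis, release and uptake, 3 of 11 tested genes were higher and 8 lower in Wt1_CKO (median -0.06). By replicate number 9 of 11 were higher in replicate 2, with 0 called by edgeR, DESeq2 or limma-voom and 4 at an unadjusted edgeR p under 0.05. Gad2, which makes GABA, had 184, 136, 190 and 182 CPM and a genotype log2 of -0.23 (SE 0.214), and the serine hydroxymethyltransferase Shmt1 had 0.24 (SE 0.160). The subunits that answer GABA thus had mostly negative values by replicate number while genes that make or carry GABA had mostly positive ones, a contrast that was not tested.

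The list of AMPA and kainate receptor auxiliary proteins held 20 tested genes, 6 higher and 14 lower in Wt1_CKO (median -0.12). In both pairs 10 of the 20 were lower (25.9% of all tested genes were), and 7 were lower with no overlap between the genotypes (against 13.5%). Cnih2, a cornichon protein that carries AMPA receptors to the surface, had 229, 187, 267 and 186 CPM. The log2 fold change of -0.41 (SE 0.110) had an unadjusted edgeR p of 0.0121 and an adjusted p of 1. Cacng7, a TARP of the stargazin family and the most abundant of the list, had 239, 218, 246 and 198 CPM, and Olfm1 had a log2 of -0.25 (SE 0.0460). Both Wt1_CKO libraries lay below both Wt1_flfl libraries for these 3 genes. Of the 23 excitatory scaffold genes 9 were higher and 14 lower (median -0.07), 12 of them in both pairs. Dlgap4, a partner of PSD-95, had 504, 454, 468 and 411 CPM, Dlgap3 a log2 of -0.31 (SE 0.0315, unadjusted p 0.0220, adjusted p 1 with edgeR) and Dlgap2 one of -0.54 (SE 0.126).

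Scaffold and traffic genes of GABA-A and glycine receptors numbered 16 tested, with 4 higher and 12 lower in Wt1_CKO (median -0.05). Nlgn2, the adhesion protein of inhibitory synapses, had 333, 317, 461 and 416 CPM, Shisa7 a genotype log2 of -0.30 (SE 0.144) and Clptm1 one of -0.17 (SE 0.0380). Of the KCTD proteins that attach to GABA-B receptors, Kctd12 was called by replicate number, with 19.1, 16.5, 9.06 and 9.64 CPM, a log2 fold change of -0.93 (SE 0.116) and an edgeR adjusted p of 0.0267. Kctd8 and Kctd12b had genotype values of 0.22 (SE 0.198) and -0.19 (SE 0.359). Kctd12 therefore had the direction of Gria2 and Grm5, while Gabbr1, at 0.17, did not pass.

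Chloride cotransporters set whether GABA-A and glycine channels excite or inhibit. Slc12a2, the importer NKCC1, had 92.2, 61.8, 82.1 and 53.7 CPM, without overlap between genotypes. Its genotype log2 fold change was -0.59 (SE 0.131) with an unadjusted edgeR p of 0.00248 and an adjusted p of 1. Slc12a5, the exporter KCC2, had 49.1, 46.4, 63.3 and 51.5 CPM and a log2 of -0.20 (SE 0.198). Of the 5 tested cotransporters 3 were higher and 2 lower in Wt1_CKO (median 0.03).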

How the data were processed

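Per the labels' protocols, oligo(dT) selected the mRNA and random primers made the cDNA. Strand is not given there. The submitters' processing notes name TopHat2 2.0.12, Bowtie2 2.2.3, HTSeq 0.6.0 and genome build mm9. The deposited positions of 45 of 48 subunits equal those of GENCODE vM21 on GRCm38, so positions are given on GRCm38. Per the file headers the authors deposited whole-number counts per gene, 1 table per pair of libraries. The authors' deposited CPM is the count over a library total, and the deposited fold ratio and log2 value are computed from it. The authors' deposited p-value and adjusted p each set 1 library against 1 library, with a test that is not given in the sources used here, and their mark was found where the adjusted p was under 0.05 and the absolute log2 at least 1. Wt1 transcript levels and some genes that the rule below selects are not reported here.

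The deposited counts of both tables were joined on genes present in each and analysed with edgeR 4.0.16 (R 4.3.3). The filter was filterByExpr at a minimum count of 10 and the scaling TMM. A two-sided quasi-likelihood F test had genotype or replicate number as its only term, with Benjamini-Hochberg adjustment over all tested genes and a threshold of 0.05. Both fits used all 4 libraries. Pair differences were taken between log2 CPM values computed with a prior count of 2. The printed SE was derived from the SD of each group's log2 CPM and is not the spread edgeR uses. The common biological coefficient of variation was 0.171.

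The members and the lists were chosen with earlier results of these data known. Values in every library were given for the 3 subunits per class with the highest CPM per kb, the 6 subunits per direction with the smallest p for genotype and for replicate number, subunits whose genotypes did not overlap at a log2 of at least 0.5, and the authors' marked ones. From each list the most abundant gene and the 2 with the smallest genotype p were named. Other genes were named after their values were seen. Exon lengths came from GENCODE vM21. Of the 48 subunits 19 share exon bases with another gene, 13 of them on the opposite strand.

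Alternatives were a replicate block or genotype term, DESeq2 size factors, no TMM, no filter and a minimum count of 50, DESeq2 1.42.0, limma-voom (limma 3.58.1), genes of either table, protein-coding genes only, each library left out, other prior counts (0.5 and 5), a crossed pairing, other gene lengths and an authors' adjusted p under 0.01. On simulated counts the genotype test recovered 52.6% of 97 genes changed by a log2 of 1 and 91.8% of 97 changed by 2 among 15630 genes, and called 12 unchanged ones. For the replicate test the shares were 54.6% and 89.7% among 15627 genes, with 3 unchanged ones called. Both simulations drew the libraries independently, with the dispersion trend of the genotype fit. They held no shift shared by same-numbered libraries beyond the changed genes, so these shares need not hold for the real libraries.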

Additional observations from a re-analysis of the deposited data

How the results depend on the processing

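By genotype, 0 subunits were called under each of the 13 alternatives. With the replicate block edgeR again called 0 of 43 subunits, and 42 of all tested genes. No label links same-numbered samples, and the correlation of their deviations from the genotype means was 0.28 over all tested genes, 0.40 over those of at least 10 CPM and 0.75 over the 43 subunits. Leaving out 1 library moved the genotype log2 fold change of Gria2 from -0.30 to 0.73, of Gria3 from -0.21 to 0.51 and of Grik2 from -0.11 to 0.30, with a change of sign without Wt1_CKO replicate 1 (-0.30, -0.21 and -0.11) and, for the first 2, without Wt1_flfl replicate 2 (-0.04 and -0.05). The number of subunits lower in Wt1_CKO ran from 17 to 37 and the median from -0.28 to 0.14. Of the other values of the named subunits, 106 under other settings and 43 without 1 library kept their direction and stayed on the same side of the threshold.

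By replicate number the count of called subunits was 10 with genotype as a term, where 1138 of all tested genes (7.14%) were called. The other settings with all 4 libraries gave 4 to 7, while 197 to 585 of all genes were called. The count of called subunits thus moved together with that of all genes. Without 1 library the median log2 fold change of the subunits ran from -0.38 to -0.13. Gabra5 was lost with no low-count filter (adjusted p 0.0682), Gria3 and Gria1 were gained with DESeq2 and Gria3 with protein-coding genes only. Without Wt1_flfl replicate 2 Grik3 was lost (adjusted p 0.0599). Subunits with one direction in both pairs numbered 25, and 15 with the crossed pairing, for which the share of all tested genes was not counted. The highest subunit of the class was the same in 7 of 8 classes with the longest transcript and in 8 of 8 with the coding length, though the order within and between classes moved. The causes were not tested. Depth limits the subunits with few counts, such as Grin2c with 4 to 21 per library.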
